A study of Mus musculus with 2 samples.

Results

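Long neural genes were examined in single cells of GL261, a mouse glioma line of C57BL/6 origin that the labels call an astrocytoma. They were Cdh18, Nkain2, Il1rapl1, Lhfpl3, Tenm4, Rbms3, Gas7 and Tnik, 8 of the 32285 genes in the count tables. They were chosen by their UMI counts as long genes that led clusters of these cells in earlier work on the same libraries, so their levels and their differences between clusters are given as descriptions. One library came from adherent cells, grown in DMEM that held 10% FBS and penicillin-streptomycin (1%). The other came from neurosphere cells, which had in addition received EGF at 20 ng/ml, FGF at 20 ng/ml and B-27, and were collected after 12 days. Dissociation differed between the cultures. Per the labels both were treated with trypsin, but the neurospheres were also triturated through a series of pipette tips, and this cannot be told apart from the culture. Both suspensions were frozen in medium with DMSO before library construction, and both cultures were the same single line. Each culture had 1 library, so no test between cultures was possible, and every interval below is a 95% interval for counting error only.

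Genes of this kind have exons separated by very long introns, so that most of what is transcribed is removed by splicing. Many encode adhesion or signalling proteins of neurons and glia. Full-length nuclear transcripts of such genes can be captured through A-rich stretches inside introns, and the 10x 3′ libraries used here count 1 unique molecular identifier (UMI) per captured molecule. Malat1, a long noncoding RNA that stays in the nucleus, and the share of mitochondrial UMIs were therefore read in the same cells. Whether reads in introns were counted is not given in the sources used here, and nuclear and spliced molecules of a gene cannot be told apart in these counts.

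After the filters, 5051 of 5764 adherent cells and 4276 of 4951 neurosphere cells were kept, with a median of 8260 and 13198.5 UMIs on the genes left after mitochondrial and ribosomal protein genes were removed. The median mitochondrial share was 2.02% in adherent cells and 3.97% in neurosphere cells. The libraries shared 12 cell barcodes. Of 10 neuron markers, 3 had at least 50 UMIs over both libraries together, namely Tubb3 (910 and 2044 UMIs), Syt1 (306 and 1202) and Syn1 (157 and 244). Snap25 and Slc17a6 had 0 UMIs in both (a count of 0 allows up to 0.0648 and 0.0462 counts per 1000000 UMIs). Of 10 oligodendrocyte lineage markers, 10 had at least 50 UMIs over both libraries together, although Mag had 2 and Mog 15 in the adherent library.

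The label "long" held for all 8 genes, whose spans in GENCODE (GRCm38) ran from 234 kb for Gas7 to 1375 kb for Il1rapl1 and ranked between 20 and 854 of 32235 genes. The label "abundant" held for Cdh18 and Nkain2, which together gave 93.7% of the UMIs of the 8 genes in adherent cells and 89.5% in neurosphere cells. Cdh18 (chr15:22549022-23474418, plus strand) spanned 925 kb, of which 4.55 kb was exon. Nkain2 (chr10:31689310-32890462, minus strand) spanned 1201 kb with 4.71 kb of exon, and Il1rapl1 (chrX:86740870-88115645, minus strand) had 9.34 kb of exon. Lhfpl3 shared its strand and part of its span with the noncoding gene 6030443J06Rik, which had 565 and 372 UMIs in the adherent and neurosphere libraries, so counts near their overlap are less certain.

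The start regions of the 3 genes with the most UMIs in neurosphere cells are shown because they differed in base composition. Each is the RefSeq window (GRCm38.p6) from 250 bases before to 50 bases after a start, 5′ to 3′ on the gene's strand, with CpG dinucleotides in capitals. The Cdh18 window (chr15:23036213-23036512) lay inside the GENCODE span of the gene, the Nkain2 window (chr10:32889866-32890165) lay inside its span near the 5′ end, and the Il1rapl1 window (chrX:88115899-88116198) lay just upstream of its span.
Cdh18: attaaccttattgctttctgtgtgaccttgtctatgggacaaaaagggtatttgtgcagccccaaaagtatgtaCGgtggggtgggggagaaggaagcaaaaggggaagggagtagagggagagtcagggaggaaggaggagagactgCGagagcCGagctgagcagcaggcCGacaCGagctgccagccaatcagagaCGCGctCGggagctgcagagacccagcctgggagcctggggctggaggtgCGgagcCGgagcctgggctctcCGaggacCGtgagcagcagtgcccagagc
Nkain2: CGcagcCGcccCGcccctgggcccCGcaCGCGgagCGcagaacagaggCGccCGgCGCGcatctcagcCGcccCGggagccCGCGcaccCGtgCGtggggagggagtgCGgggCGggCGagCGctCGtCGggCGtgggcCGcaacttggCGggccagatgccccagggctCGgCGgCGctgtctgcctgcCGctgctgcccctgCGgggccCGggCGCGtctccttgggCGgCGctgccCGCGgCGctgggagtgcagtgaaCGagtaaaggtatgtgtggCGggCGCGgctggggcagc
Il1rapl1: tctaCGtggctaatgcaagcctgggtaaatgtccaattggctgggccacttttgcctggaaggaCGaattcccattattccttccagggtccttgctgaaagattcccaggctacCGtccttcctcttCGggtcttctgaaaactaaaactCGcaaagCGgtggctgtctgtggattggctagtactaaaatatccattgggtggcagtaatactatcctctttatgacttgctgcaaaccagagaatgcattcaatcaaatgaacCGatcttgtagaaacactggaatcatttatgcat
The Nkain2 window held 43 CpG and 78.7% G or C, more CpG than 97.4% of 32851 windows, and contained GGGCGG, found in 35.7% of all windows (each motif was searched on both strands). The Cdh18 window held 12 CpG and the Il1rapl1 window 7 CpG, and both contained CCAAT, found in 37.4% of windows. None of the 3 contained TATAAA, found in 13.6% of windows. The counts in these files do not bear on binding at these letters.

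Cdh18, a type II cadherin of calcium-dependent adhesion between neural cells, was the most abundant gene over 200 kb in either culture. It had 119101 UMIs in adherent cells, or 2573 counts per 1000000 UMIs on the genes left (CPM). In neurosphere cells it had 248255 UMIs, or 3823 CPM. Among all genes it ranked 37 in adherent cells and 11 in neurosphere cells. The log2 ratio, neurosphere over adherent, was 0.57 (0.56 to 0.58), which is a 1.49-fold higher level. Malat1 was at 3010 and 2783 CPM, so Cdh18 lay below it in adherent cells and above it in neurosphere cells.

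Il1rapl1, a synapse-organizing member of the interleukin-1 receptor family that binds the phosphatase Ptprd, differed most between the cultures. Adherent cells held 561 of its UMIs (12.1 CPM) and neurosphere cells 21219 (327 CPM), for a log2 ratio of 4.75 (4.63 to 4.88) or 26.96-fold. Its rank among all genes moved from 7531 to 537. Tenm4, a teneurin that binds latrophilins across cell contacts and takes part in myelination, went the other way, from 29.2 to 9.62 CPM, with a log2 ratio of -1.60 (-1.74 to -1.46).

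Nkain2 encodes a membrane protein that interacts with the sodium pump, and went from 536 CPM in the adherent library to 1706 CPM in the neurosphere library, with a log2 ratio of 1.67 (1.65 to 1.69). It was the third most abundant gene over 200 kb in adherent cells and the second in neurosphere cells. Lhfpl3, a tetraspan protein known as a marker of oligodendrocyte precursors, was at 34.5 and 125 CPM, with a log2 ratio of 1.86 (1.78 to 1.94).

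The 3 genes of the cytoplasm are not neural alone. Tnik, a kinase that binds Traf2 and Nck and acts in Wnt signalling, was at 56.7 CPM in the adherent library and 139 CPM in the neurosphere library, for a log2 ratio of 1.29 (1.23 to 1.35). Gas7, a membrane-bending protein of neurite outgrowth, was at 49.4 and 36.8 CPM, with a log2 ratio of -0.43 (-0.51 to -0.34). Rbms3, an RNA-binding protein, was at 26.9 and 8.48 CPM, a log2 ratio of -1.66 (-1.81 to -1.52).

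**Figure D1:**
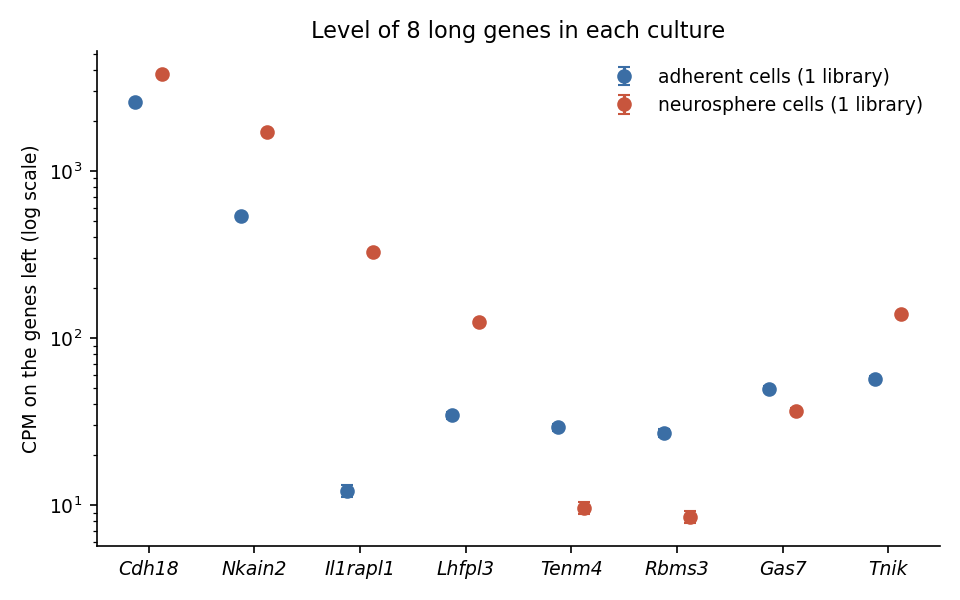
Level of each of the 8 genes in CPM on the genes left (log axis) in adherent cells (blue) and neurosphere cells (red), 1 library each. Bars are 95% intervals for counting error and are mostly smaller than the points. Cdh18 lies highest in both cultures, and Il1rapl1 shows the widest gap, from 12.1 to 327 CPM.

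In neurosphere cells, 4 of the 8 genes were over 2-fold higher (Nkain2, Il1rapl1, Lhfpl3 and Tnik), beside 21.7% of the 14654 genes with at least 50 UMIs, and 2 were over 2-fold lower (Tenm4 and Rbms3), beside 11.7%. Their median log2 ratio was 0.93, beside 0.32 over all tested genes. The whole set took 0.332% of the adherent UMIs and 0.617% of the neurosphere UMIs. Per kilobase of exon, Cdh18 stood at 565 CPM (adherent) and 839 CPM (neurosphere) and Nkain2 at 114 and 362. The other 6 genes stood between 1.30 and 10.7 in the adherent library and between 0.458 and 38.9 in the neurosphere library. Tenm4 and Il1rapl1, the lowest on this scale in adherent cells at 1.39 and 1.30 CPM per kb, had overlapping counting intervals.

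The median log2 ratio differed between groups of genes by span. The median log2 ratio was 0.14 for 3995 genes spanning under 10 kb, 0.41 for 4068 genes of 30 to 100 kb, 0.69 for 299 genes of 300 to 600 kb and 0.90 for 112 genes over 600 kb. The last median was 0.57 when genes with 1 UMI in each library were let in. Of the last group, 46.4% were over 2-fold higher and 10.7% over 2-fold lower. Among the 5 of the 8 genes that span over 600 kb, Nkain2 and Il1rapl1 lay above the median of that group, Cdh18 below it, and Tenm4 and Rbms3 on the other side of 0.

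**Figure D2:**
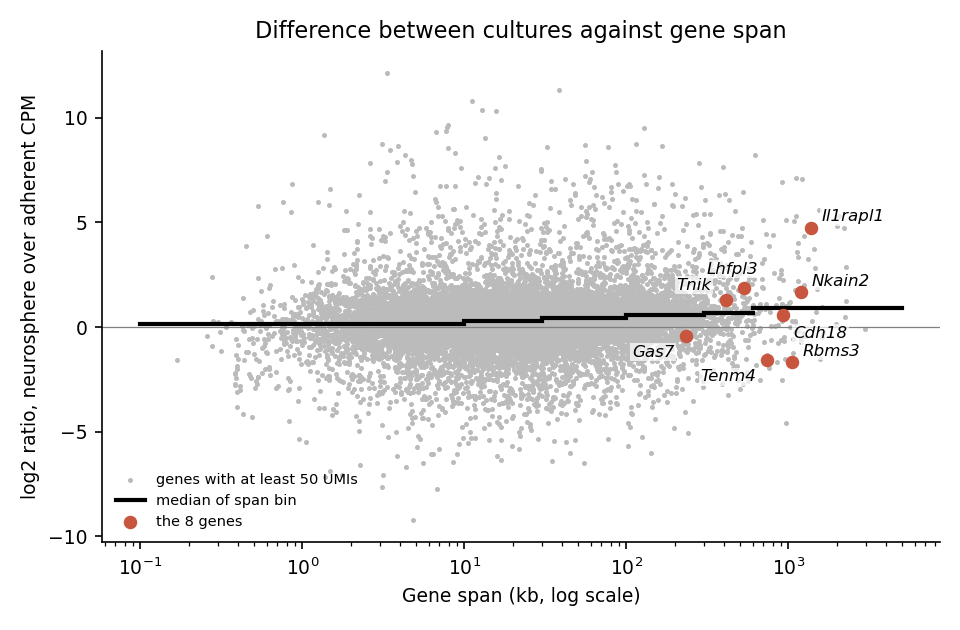
Log2 ratio of CPM, neurosphere over adherent, against gene span in kb (log axis) for genes with at least 50 UMIs (grey), with the median of each span bin (black lines) and the 8 genes (red). The median steps up from 0.14 under 10 kb to 0.90 over 600 kb, and the 8 genes lie on both sides of it.

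The differences between cultures were also taken in like cells. In 7 comparisons of matched cells (each of 4 groups by Malat1 level, cells with 2 to 5% mitochondrial UMIs, cells with 8000 to 14000 UMIs, and cells low in both cell cycle lists), the log2 ratio of Cdh18 ran from 0.44 to 0.78 and that of Nkain2 from 1.32 to 2.00. It ran from 4.47 to 5.11 for Il1rapl1, from 1.22 to 2.58 for Lhfpl3 and from 1.08 to 1.68 for Tnik. It ran from -1.98 to -0.96 for Tenm4, from -2.47 to -1.02 for Rbms3 and from -0.72 to -0.16 for Gas7. The counting interval of the last value, in the lowest group by Malat1, was -0.33 to 0.0039 and held 0. These comparisons were chosen after the data were seen.

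The relatives of the 8 genes did not share 1 direction. Beside Cdh18, the list held 12 type II cadherins, of which 6 had at least 50 UMIs. Of these, 3 passed 2-fold upward in neurosphere cells, beside 21.7% of all tested genes, namely Cdh10 (34.8 to 262 CPM), Cdh19 (107 to 317 CPM) and Cdh12 (0.216 to 3.46 CPM), while 1, Cdh6, was over 2-fold lower (60.8 to 26.9 CPM), beside 11.7%. Nkain4 was at 1.17 and 6.82 CPM and Nkain1 at 4.47 and 3.02 CPM, both far below Nkain2. Il1rapl2, the nearest relative of Il1rapl1, had 17 and 23 UMIs, and Il1rap was at 22.6 and 27.7 CPM. Among teneurins, Tenm3 was more abundant than Tenm4, at 205 CPM (adherent) and 169 CPM (neurosphere), whereas Tenm1 and Tenm2 had at most 31 UMIs in a library. Rbms1 (123 to 89.0 CPM) and Rbms2 (109 to 60.8 CPM) were lower in neurosphere cells, as Rbms3 was, by less than 2-fold. Map4k4, a kinase of the same group as Tnik, was at 64.9 and 298 CPM, and Mink1 at 7.06 and 7.10 CPM.

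Partners of the adhesion proteins and of Tnik were taken as a list. Of 27 such genes, 25 had at least 50 UMIs, 6 passed 2-fold upward in neurosphere cells and 2 downward, beside the 21.7% and 11.7% of all tested genes, so both shares were near the background. Their median log2 ratio was 0.62. The latrophilin Adgrl3, a teneurin receptor, went from 22.2 to 466 CPM, and Ptprd had 21 and 70 UMIs. In a list of 67 other long neural genes, 48 had at least 50 UMIs, 29 were over 2-fold higher and 4 over 2-fold lower, with a median log2 ratio of 1.59. Its members with the most UMIs over both libraries together were Macrod2 (52.1 to 1463 CPM), Sox6 (151 to 754 CPM) and Sgcz (45.7 to 470 CPM). In a list of 37 long genes that most tissues express, 36 had at least 50 UMIs, 7 were over 2-fold higher and 1 over 2-fold lower, with a median of 0.61.

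In single cells, Cdh18 was nearly universal in both cultures and Nkain2 in neurosphere cells. A Cdh18 UMI was found in all but 2 adherent cells and all but 1 neurosphere cell, with a median of 20 UMIs per adherent cell and 50 per neurosphere cell. Nkain2 had a UMI in 88.8% of adherent cells (87.9 to 89.7, exact binomial) and 98.2% of neurosphere cells, with medians of 3 and 18 UMIs. Il1rapl1 was seen in 8.77% of adherent cells and 77.6% of neurosphere cells, and Tnik in 35.6% and 70.1%. Lhfpl3 was seen in 20.4% and 40.5%, Gas7 in 30.8% and 32.4%, Tenm4 in 19.1% and 9.78%, and Rbms3 in 18.6% and 7.30%. No cell type known to lack these genes was in the libraries, so the share that free RNA gives could not be measured.

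With every cell thinned to 5000 UMIs, for which 587 adherent and 80 neurosphere cells were too shallow, the shares could be set beside those of a gene at the same level in every cell. Lhfpl3 was found in 26.6 to 29.4% (exact interval) of thinned neurosphere cells where an even level would give 54.7%, and Il1rapl1 in 60.8% where it would give 85.6%. Nkain2 was found in 78.9% of thinned adherent cells where an even level would give 93.3%. For Cdh18 the observed share was 99.9% in adherent cells and 100% in neurosphere cells, at which an uneven level could not show. The variance over the mean of its thinned counts was 2.83 in adherent cells and 3.83 in neurosphere cells, beside 2.96 and 11.3 for Nkain2, 1.61 and 5.25 for Lhfpl3, and 15.4 and 29.3 for Malat1. The other 5 genes lay between 1.18 and 1.34 in adherent cells. This measure moves with the mean count, so it does not rank the genes by evenness. Among genes with a mean within 2-fold of its own, Cdh18 exceeded 76.7% in adherent cells and 43.2% in neurosphere cells. Nkain2 exceeded 95.7% and 91.3% of such genes, and Lhfpl3 99.3% and 99.6%. Of the genes other than Cdh18, Tnik stood lowest, at 91.0% and 90.4%. Cdh18 was also the only 1 of the 8 genes outside the 2000 most variable genes of both libraries.

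**Figure D3:**
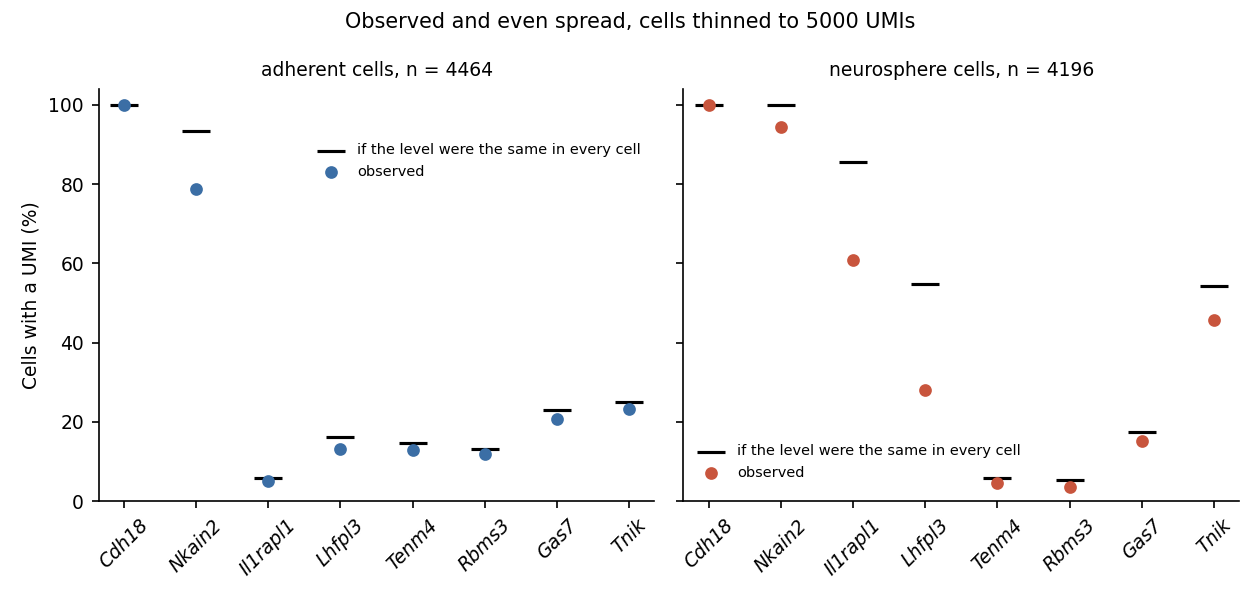
Percentage of cells with at least 1 UMI of each gene after thinning to 5000 UMIs (points), beside the percentage that the same mean would give at an even level (black dashes). In neurosphere cells the points of Lhfpl3 and Il1rapl1 fall furthest below their dashes, followed by Tnik (45.7% beside 54.3%), and in adherent cells Nkain2 does (78.9% beside 93.3%).

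Most of the 8 genes were higher in cells rich in Malat1, less clearly so for Gas7 and for Tenm4 in neurosphere cells. Levels are here CPM on the other UMIs, which leave out Malat1 and the 8 genes themselves, and the kept cells of a library were split into 4 equal groups by their Malat1 level. From the lowest to the highest group of adherent cells, Cdh18 was at 2146 and 3162 CPM, a ratio of 1.47 (1.450 to 1.497), and Nkain2 at 225 and 918 CPM, a ratio of 4.08 (3.91 to 4.25). In neurosphere cells the ratio was 1.35 (1.33 to 1.36) for Cdh18 and 3.84 (3.77 to 3.91) for Nkain2. Il1rapl1 had ratios of 5.19 in adherent cells and 3.95 in neurosphere cells, Lhfpl3 of 2.65 and 6.81, and Rbms3 of 2.89 and 3.87. Tnik had ratios of 2.23 and 2.54, Tenm4 of 3.45 and 1.70, and Gas7 of 1.44 and 1.18.

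A level at least 25% higher in the highest group was found for 8 of the 8 genes in adherent cells, beside 52.8% of all tested genes and 88.8% of genes over 200 kb, and for 7 of 8 in neurosphere cells, beside 50.2% and 87.9%. For Gas7 in adherent cells and Tenm4 in neurosphere cells the call did not hold in all cells of like depth, as given with the depth groups. The counts of the 8 genes were thus near the background of long genes. The median ratio of other genes in adherent cells was 0.96 for spans under 10 kb and 2.35 for spans over 600 kb, and in neurosphere cells it was 1.00 and 2.58. Cdh18 lay below the median of its span group in both cultures, and Nkain2 above it. In a list of 20 short cytosolic mRNAs, 0 were that much higher in either culture, with median ratios of 0.82 and 0.77.

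**Figure D4:**
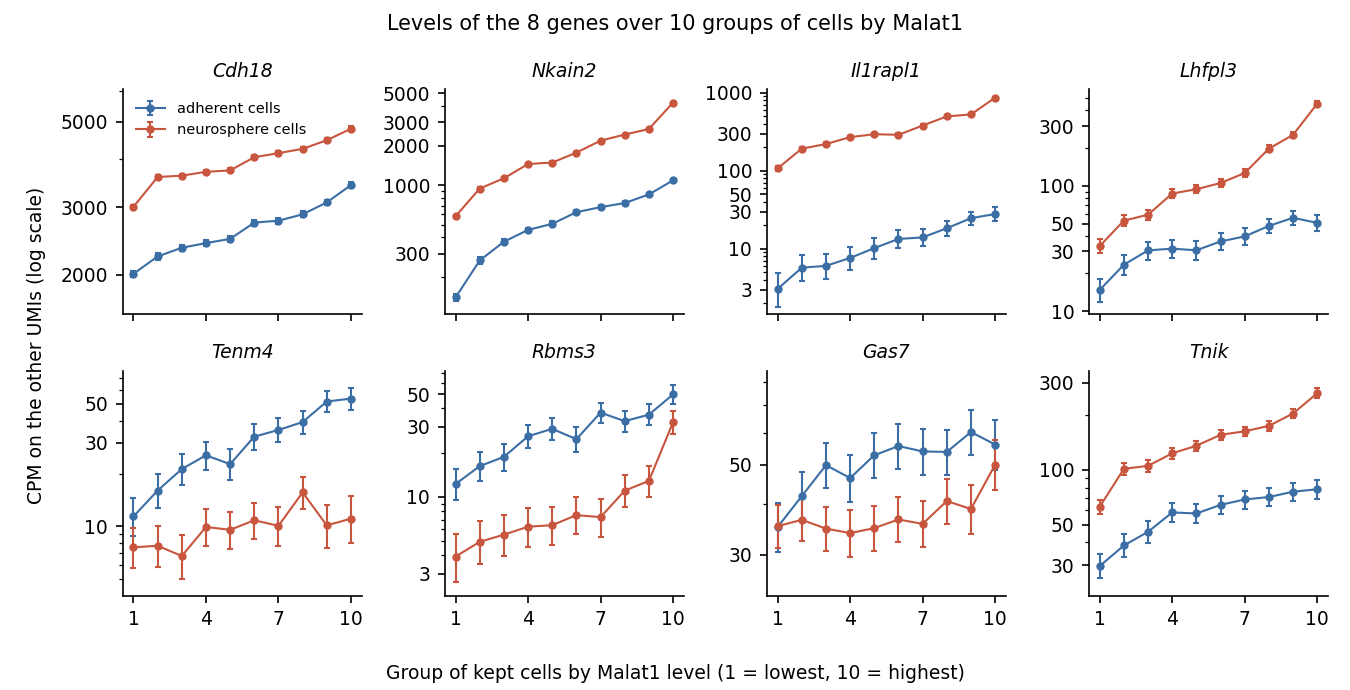
Level of each gene, in CPM on the other UMIs (log axis), over 10 equal groups of the kept cells ordered by Malat1, for adherent cells (blue) and neurosphere cells (red), with 95% counting intervals. Cdh18 and Nkain2 step up at each of 9 steps in both cultures, Nkain2 from 140 to 1088 in adherent cells and from 579 to 4249 in neurosphere cells, while Gas7 steps up at 5 of 9.

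Cells rich in Malat1 were also shallower. Between the lowest and the highest group, median UMIs per cell went from 9108 to 7448 in adherent cells and from 15488 to 9495 in neurosphere cells, and the median mitochondrial share from 1.92% to 2.16% and from 3.59% to 4.49%. Within each of 4 groups by UMIs per cell, the Malat1 ratio of Cdh18 ran from 1.41 to 1.48 (adherent) and from 1.26 to 1.33 (neurosphere). That of Nkain2 ran from 2.84 to 5.30 and from 3.20 to 4.30. Il1rapl1 ran from 4.04 to 7.42 (adherent) and from 2.89 to 4.09 (neurosphere), and Tnik from 1.61 to 2.61 and from 1.86 to 2.51. Lhfpl3 fell as low as 1.36 (0.99 to 1.86) in 1 adherent group, with 3.16 as its highest, and ran from 4.29 to 6.44 in the neurosphere groups. Rbms3 ran from 1.79 to 3.06 and from 1.99 (1.20 to 3.35) to 3.73. These lowest values of Lhfpl3 and Rbms3 were over 1.5 times below the pooled ratios. For Gas7 the adherent ratio ran from 1.10 (0.81 to 1.49) in the shallowest cells to 1.56 (1.29 to 1.90) in the deepest, reached 25% higher in 3 of 4 groups and had an interval that held 1 in 2. Its neurosphere ratio ran from 1.26 (0.91 to 1.76) in the shallowest cells to 0.97 (0.81 to 1.17) in the deepest, where the direction turned, and the interval held 1 in all 4 groups. The ratio of Tenm4 ran from 2.71 to 3.86 in the adherent groups. In the neurosphere groups, from the shallowest to the deepest, it was 1.08 (95% interval 0.59 to 1.96), 2.83 (1.46 to 5.83), 1.16 (0.77 to 1.73) and 1.30 (0.87 to 1.95). Its pooled neurosphere ratio of 1.70 was thus under 25% higher in 2 of the 4 groups, and the interval held 1 in 3 of them.

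By mitochondrial share most of the genes were higher in the highest of 4 groups, with smaller ratios than by Malat1 for most, and at like depth several of these differences were under 25%. Cdh18 was at 2354 and 2965 CPM in the lowest and highest groups of adherent cells, a ratio of 1.26 (1.24 to 1.28), with a ratio of 1.33 (1.31 to 1.34) in neurosphere cells. Nkain2 had ratios of 1.96 and 2.23, and Rbms3 of 2.26 and 5.34, the latter on 82 and 232 UMIs. Tenm4 stood apart, with an adherent ratio of 1.20 (1.03 to 1.41) and a neurosphere ratio of 1.04 (0.82 to 1.30). A level at least 25% higher was found for 7 of 8 genes in both cultures, beside 40.9% of all tested genes in adherent cells and 46.6% in neurosphere cells, and 78.3% and 80.3% of genes over 200 kb. Median UMIs per cell went from 9297 to 6659 and from 18047 to 9416 between these groups. Within each of 4 groups by UMIs per cell, the ratio of Cdh18 ran from 1.17 to 1.22 (adherent) and from 1.11 to 1.35 (neurosphere), that of Nkain2 from 1.48 to 2.52 and from 1.51 to 2.06, and that of Tnik from 1.24 to 1.96 and from 0.94 to 1.82. The ratio of Rbms3 ran from 1.84 to 2.02 (adherent) and from 2.62 to 4.56 (neurosphere), below the pooled values of 2.26 and 5.34. The ratio of Tenm4 ran from 0.79 to 1.28 and from 0.38 (0.21 to 0.66) to 1.74, on both sides of 1. Cdh18 thus reached 25% higher in 0 of the 4 adherent depth groups and 2 of the 4 neurosphere ones, and Tnik in 3 and 1. Il1rapl1 in neurosphere cells reached it in 3 of 4, with 1.11 (1.02 to 1.22) in the shallowest. Of the 8 genes, 6 reached it in each adherent depth group, and 4, 6, 6 and 7 from the shallowest to the deepest neurosphere group.

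Over all called cells, kept or not, Nkain2 in adherent cells was at 441 CPM among 2499 cells under 2% mitochondrial UMIs and 1385 among 135 cells at 5 to 10%. It was at 4662 among 174 cells at 20 to 50% and 1957 among 347 cells above 50%. In neurosphere cells it was at 904, 2756, 6563 and 3108 CPM in the same ranges, over 91, 1030, 23 and 478 cells. The value of 6563 rests on 303 UMIs. Cdh18 in adherent cells went from 2436 CPM under 2% to 3851 at 10 to 20% and 1448 above 50%. In neurosphere cells Cdh18 went from 3139 CPM under 2% to 5934 at 20 to 50% and 4766 above 50%. Adherent cells at high mitochondrial shares held few UMIs each, with 107470 UMIs of other genes over the 174 cells at 20 to 50% and 51111 over the 347 above 50%. The 478 neurosphere cells above 50% held 48262 such UMIs. The part of cell damage in these levels was not tested.

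Levels also differed with the cell cycle lists, most in neurosphere cells. Between the lowest and highest of 4 groups by G2/M genes, the ratio in neurosphere cells was 0.74 for Cdh18, 0.36 for Nkain2, 0.37 for Il1rapl1 and 0.33 for Rbms3. A ratio under 0.8 was found for all 8 genes in neurosphere cells, beside 44.9% of all tested genes and 75.2% of genes over 200 kb. In adherent cells 5 of the 8 were under 0.8, beside 29.8% of all tested genes and 46.9% of genes over 200 kb. The other 3 were Cdh18 at 0.88 (0.86 to 0.89), Lhfpl3 at 0.89 (0.776 to 1.015) and Tnik at 0.91 (0.814 to 1.015). By S-phase genes, adherent ratios ran from 0.81 for Cdh18 to 1.00 (0.96 to 1.03) for Nkain2 and 1.00 (0.79 to 1.27) for Il1rapl1, and neurosphere ratios from 0.34 for Rbms3 to 0.79 for Cdh18. By G2/M genes, Malat1 had ratios of 0.79 and 0.48. Median UMIs per cell were 8472 and 18047 in the lowest and highest groups of neurosphere cells by G2/M genes, and 6807 and 10475.5 in adherent cells. Between the lowest and highest of 4 groups of neurosphere cells by UMIs per cell, the ratio was 0.82 for Cdh18 and 0.49 for Nkain2. It was 0.39 for Il1rapl1 and 0.23 for Rbms3. The part of depth in the ratios by cell cycle lists was not tested.

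Clusters made without the 8 genes, 10 in adherent cells and 11 in neurosphere cells, carried the genes unevenly. Cdh18 was the flattest, from 2191 to 3257 CPM over adherent clusters and from 2640 to 5014 over neurosphere clusters. In adherent cells the other 7 genes were highest in cluster 9, which held 47 cells with a median of 2600 UMIs, a mitochondrial share of 12.4% and 152 Malat1 UMIs per 10000. For Gas7 this rests on 14 UMIs, at 112 CPM (61.3 to 188) beside 103 CPM (94.4 to 111) in cluster 2, which cannot be told apart at this depth. In cluster 9 Nkain2 was at 6094 CPM, Tnik at 416, Lhfpl3 at 304 and Il1rapl1 at 192. Cluster 9 gave 3.07% of all adherent Nkain2 UMIs and 0.316% of those of Cdh18, from 0.931% of the cells. Without it, the Malat1 ratio of Nkain2 in adherent cells was 3.805 and its log2 ratio between cultures 1.71.

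In neurosphere cells the genes were highest in different clusters. Nkain2 (3160 CPM) and Il1rapl1 (849 CPM) were highest in cluster 0, led by Comp and Pdzd2, where G2/M genes were at a median of 1.16 UMIs per 10000. Cluster 6, led by Enpp2 with the myelin gene Mbp among its leading genes, had the highest Lhfpl3 (637 CPM), Rbms3 (53.7), Tnik (247) and Cdh18 (5014). Tenm4 was at 109 CPM in cluster 10, led by Cxcl2 with the stress genes Nupr1 and Hmox1, and between 4.25 and 15.0 in all other clusters. That peak depended on how the cells were clustered, and the highest cluster stood at 34.6 CPM with coarser clusters (resolution 0.8) and at 175 CPM when the 8 genes were allowed among the clustering genes. Gas7 was highest in cluster 7 at 61.3 CPM. Lhfpl3 ranged from 17.5 in cluster 5 to 637 in cluster 6. Its lowest cluster stood at 33.7 CPM with coarser clusters and at 32.5 CPM when the 8 genes were allowed.

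**Figure D5:**
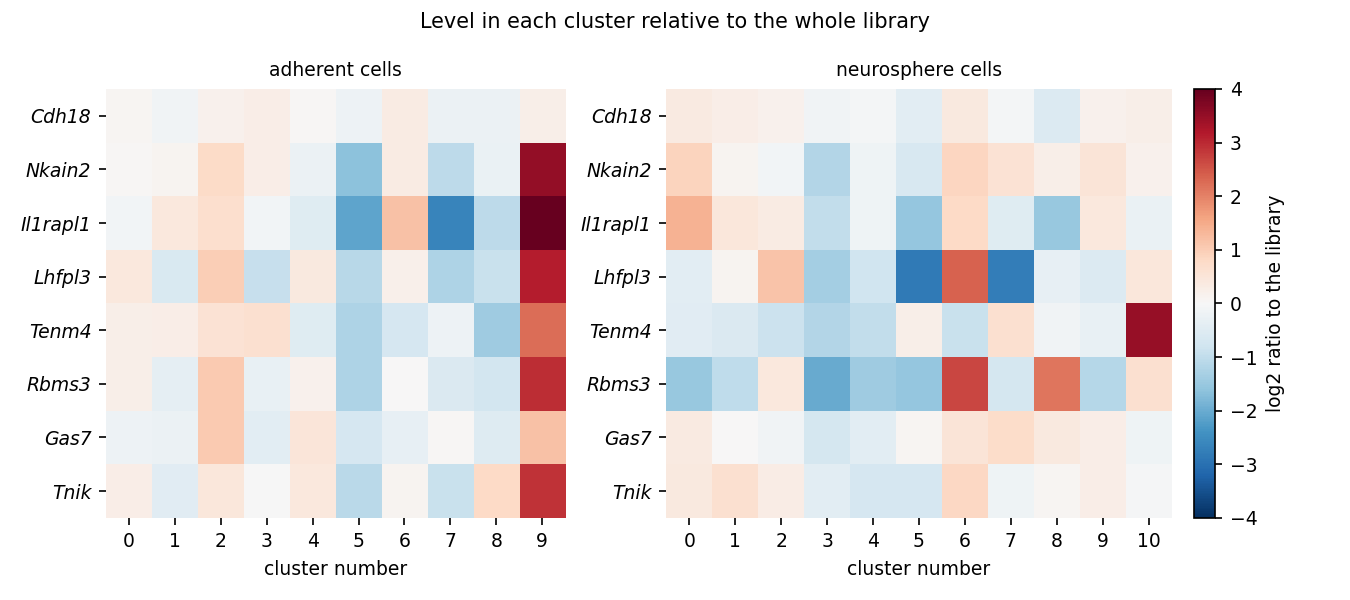
Level of each gene in each cluster relative to its level in the whole library (log2 colour scale, from -4 in blue to 4 in red), for the 10 adherent and 11 neurosphere clusters. Adherent cluster 9 (47 cells) is red for 7 genes, Tenm4 is red in neurosphere cluster 10, Lhfpl3 and Rbms3 in cluster 6, Rbms3 also in cluster 8, and the Cdh18 row is pale throughout.

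Correlations between the 8 genes from cell to cell were low, and in counts this sparse a low value is no finding. Over their 28 pairs, the median correlation of log levels was 0.09 in adherent cells (n = 5051) and 0.07 in neurosphere cells (n = 4276), with highest values of 0.21 and 0.36. Among 9211 genes with a UMI in at least 5% of the cells of both libraries, the gene most like Cdh18 was Malat1 (mean r of 0.31 over both libraries), followed by the collagen Col11a1 (0.19 in adherent and 0.42 in neurosphere cells). Malat1 was also the most like Nkain2 (0.49), followed by Col11a1 and Sox6. For Il1rapl1 they were Col11a1, Mdga2 and Ncam2, on neurosphere values of 0.51 to 0.54 beside adherent values of 0.09 to 0.17, where few cells had a UMI of it. For Tnik they were Sox6, Col11a1 and Tcf4 (0.16 to 0.19 in adherent cells, 0.35 to 0.39 in neurosphere cells), and for Lhfpl3 they were Ppp2r2b (0.24 and 0.57), Slc1a3 and Mbp. Tenm4 was most like Ddit3, Gdf15 and Steap1 (0.22 to 0.23), of which Ddit3 and Gdf15 are stress-response genes. For Rbms3 they were Lhfpl3, Slc1a3 and Chl1 (0.20 to 0.23), and for Gas7 Lbh, Slc26a2 and Chl1 (0.15 to 0.18). Cells of a library share its depth and processing, so these values are descriptions.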

How the data were processed

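Cells of the GL261 line were measured by 10x single cell 3′ v3 RNA sequencing in 1 adherent and 1 neurosphere library. The deposited matrices hold raw UMI counts, which the authors made with Cell Ranger 7.0.1 against mm10, per the file headers and the submitters' processing notes. The 13 mitochondrial and 101 ribosomal protein genes were removed, and cells with at least 1000 UMIs and at least 1250 genes (adherent) or 2250 genes (neurosphere) were kept. UMIs of kept cells were summed per library, 46290996 and 64943938, and divided to CPM. Log2 ratios carry exact conditional intervals (scipy 1.17.1), and tested genes had at least 50 UMIs over both libraries. With 1 library per culture no p-value was computed. Levels within a library were taken over 4 equal groups of cells by Malat1, mitochondrial share, G2/M and S-phase lists or depth. Clusters came from Seurat 5.3.0 (2000 variable genes without the 8 genes, 17 and 18 components, resolution 1), and clusters were left unnamed. No doublet caller was run, and cells over the 95th percentile of UMIs were left out as an alternative. Scaling with edgeR 4.0.16 (TMM) was another. Spans came from GENCODE vM21 (32235 of 32285 genes matched). The intervals were tested on simulated counts with counting error only, which the intervals assume, so that test does not cover the wider spread of these counts. The split of cells into groups was also run on simulated counts. The 8 genes and all gene lists were chosen with earlier results of these data known. Genes named besides the 8 were Malat1, list members, up to 3 by UMIs per long-gene list, family and partner genes and cell type markers picked after their values were seen, the 3 most correlated genes per member, leading genes of clusters and nearest coding neighbours.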

Additional observations from a re-analysis of the deposited data

Results flagged for a closer look

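Cells outside the kept set still held the 8 genes. The 713 adherent and 675 neurosphere cells left out by the filter had median mitochondrial shares of 48.8% and 87.0%, and their levels, in CPM on UMIs other than those of Malat1 and the 8 genes, stood above those of the kept cells for all 8 genes in adherent cells, least for Cdh18. The ratio of left-out over kept cells was 4.45 for Nkain2 (924 UMIs in the left-out cells), 3.83 for Il1rapl1 (18 UMIs), 2.99 for Lhfpl3, 4.24 for Tenm4, 3.93 for Rbms3, 2.76 for Gas7 and 5.41 for Tnik. In neurosphere cells it was 3.45 for Tenm4 (19 UMIs) and 4.33 for Rbms3 (21 UMIs), with counting intervals of 2.07 to 5.44 and 2.66 to 6.69. The other neurosphere ratios were smaller, at 1.88 for Nkain2 (1837 UMIs), 1.84 for Il1rapl1, 1.62 for Gas7, 1.44 for Tnik and 1.17 (0.936 to 1.46) for Lhfpl3. Cdh18 had ratios of 1.13 and 1.16, and Malat1 of 3.46 and 2.08.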

How the results depend on the processing

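No paired analysis was possible because each culture had 1 library. The counts of genes past 2-fold between cultures (4 upward, 2 downward), and of genes at least 25% higher in the highest group by Malat1 or mitochondrial share, stayed within 1.5 times under every alternative run, apart from the values that follow. Within single groups of UMIs per cell, the neurosphere count by mitochondrial share was as low as 4, against 7. In the cells left out by the filter, chosen after seeing the data, 1 gene (Il1rapl1) was over 2-fold higher and the log2 ratio of Tnik was -0.61, on few UMIs. The median log2 ratio of genes over 600 kb was 0.57 when genes with 1 UMI in each library were let in, and the median of genes with over 10 kb of exon was also 0.57. The all-gene median log2 ratio of 0.32 was 0.11 with TMM scaling and 0.54 when the total included mitochondrial and ribosomal genes. The log2 ratio of Cdh18 was 0.35 and 0.79 under these, and that of Gas7 -0.64 and -0.21, so both kept their direction. Of the single-gene values, 290 moved by less than their counting interval or 1.5 times, 141 moved by more and 1, that of Tnik above, was counted as changing direction. Within single groups by UMIs per cell, some ratios also fell below 1 against a pooled ratio above 1. These were Gas7 by Malat1 in neurosphere cells (0.97), and by mitochondrial share Tnik in neurosphere cells (0.94) and Tenm4 in both cultures (as low as 0.79 and 0.38). The 141 were 35 ratios between cultures, 47 Malat1 ratios, 55 mitochondrial ratios and 4 cluster ranges. The highest neurosphere cluster over the lowest was 36.5 for Lhfpl3, against 19.0 with the 8 genes allowed in clustering and 17.001 at resolution 0.8. At that resolution it was 7.35 for Tenm4, against 25.5, and 14.2 for Rbms3, against 25.8. With 1 library per culture, differences between cultures cannot be told apart from differences between libraries, and genes with under 1000 UMIs in a library (Il1rapl1 in adherent cells, Tenm4 and Rbms3 in neurosphere cells) have the widest intervals.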

Other observations

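The nearest coding neighbours did not all move as the 8 genes did. Trdn, a muscle calcium-release gene 190 kb from Nkain2, had 11 adherent and 3096 neurosphere UMIs, a log2 ratio of 7.65, while Rnf217 on the other side had 0.68. Beside Cdh18, Basp1 was at 36.3 and 38.9 CPM and Cdh12 at 0.216 and 3.46 CPM. Beside Rbms3, which was lower in neurosphere cells, Tgfbr2 was higher, with a log2 ratio of 2.74. Beside Tenm4, Fam181b had a log2 ratio of -2.34 at a distance of 3089 kb and Nars2 a log2 ratio of 0.69 at 40.4 kb. Both neighbours of Lhfpl3, Orc5 and Kmt2e, were higher in neurosphere cells, with log2 ratios of 0.95 and 1.00.

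The number of the 8 genes seen per cell follows in part from how widely each was found. Cdh18 had a UMI in nearly every kept cell, and Nkain2 in 88.8% of adherent and 98.2% of neurosphere cells. The numbers per cell were not set beside those that the single shares would give, so they do not show that the genes go together. At least 1 of them had a UMI in every kept cell, 1633 of 5051 adherent cells held 3 of the 8, and 1360 of 4276 neurosphere cells held 4. All 8 were seen in 4 adherent and 6 neurosphere cells.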
